A study of Mus musculus with 12 samples.

Results

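SLM2, the product of Khdrbs3, is an RNA-binding protein of the STAR family that sits in the nuclei of neurons and regulates alternative splicing. It recognises short A/U-rich elements, above all the tetramer UWAA, in which W stands for U or A, and its best known targets are the neurexins, presynaptic adhesion proteins whose alternative exons change the choice of postsynaptic partner. In enhanced cross-linking and immunoprecipitation (eCLIP), protein and RNA are joined by UV light, the protein is immunoprecipitated, and the RNA fragments it holds are sequenced beside a size-matched input that was not immunoprecipitated. The RNAs enriched over input in SLM2 eCLIP of the hippocampus are described here as sites. A site is a deposited peak, or several peaks of one strand that lie at most 100 nt apart, and it belongs to the GENCODE gene that holds its centre on the same strand. The hippocampal list had 178 peaks, which formed 145 sites, out of 1998 sites in the lists of both tissues. The whole-brain list, joined in the same way, had 2057 peaks and 1853 sites.

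All mice were 30 days old, and all tissue, frozen and ground, received 3 UV exposures of 400 mJ/cm2. Of 12 libraries, 2 were eCLIP and 2 were input from wild-type (WT) hippocampus, 2 and 2 came from WT whole brain, and 2 and 2 from hippocampus of Slm2 knockout (KO) mice, which were not analysed here. Hippocampi were pooled and hold many cell types, and a peak list carries no expression level by which the dissected tissue could be checked. The authors merged the 2 replicates of each tissue into 1 list of reproducible peaks, so each site has 1 log2 fold change (eCLIP over input) and 1 −log10 p per tissue and no spread over replicates, and no difference was tested. Intervals below are exact (Clopper-Pearson) 95% binomial intervals, which cover counting error only.

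Of the 145 hippocampal sites, 127 were single peaks and 18 joined 51 peaks, with up to 9 in a site. The median length was 113 nt (7 to 577 nt) and the median log2 fold change was 2.46 (2.01 to 5.10). The sites lay in 91 genes, 81 of them protein-coding, and 70 genes had 1 site. The other 21 genes held 75 sites. By the annotation at their centre and a search for adaptor sequence, the sites fell into 5 classes. Introns of protein-coding genes held 99 sites (68.3%, interval 60.0 to 75.7%), long non-coding RNAs (lncRNAs) held 18 (12.4%, 7.53 to 18.9%), and exons of protein-coding genes held 6 (4.14%, 1.53 to 8.79%). A further 15 sites (10.3%, 5.91 to 16.5%) lay on small structural RNA genes, such as small nuclear RNAs of the spliceosome, most of them nested inside longer genes. The last 7 sites (4.83%, 1.96 to 9.69%) matched the sequencing adaptor over at least 10 nt.

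**Figure D1:**
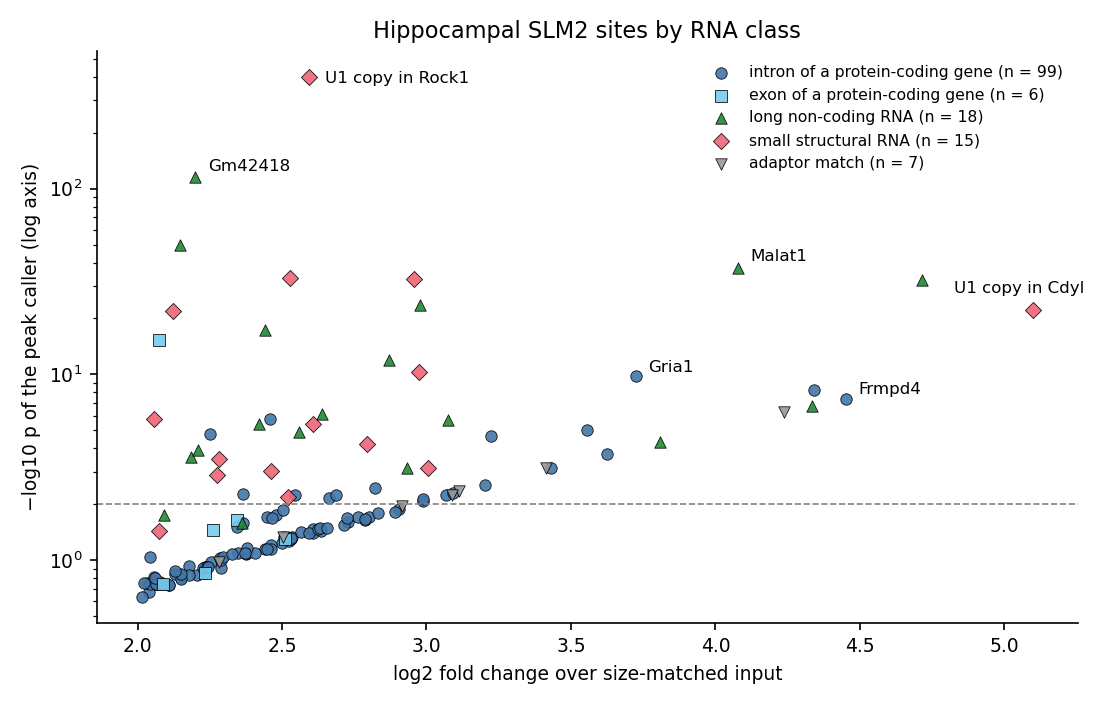
Each point is 1 hippocampal site, with its log2 fold change over input on the x axis and the −log10 p of the peak caller on a logarithmic y axis, coloured by class; the dashed line marks a −log10 p of 2. Of the 99 intronic sites 80 lie below the line, while the U1 copy in Rock1, at the upper limit of 400, and the Gm42418 site at 115 stand at the top.

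The sequences that carry these classes are given first, 5′ to 3′ on the strand of the RNA, from the RefSeq GRCm38.p6 (mm10) genome, in which T stands for U. Capitals mark UWAA (UUAA or UAAA), and they mark the bases identical to the adaptor in the last sequence. The first 6 are intronic sites dense in UWAA or beside alternative exons, the next is an intronic tandem repeat with little UWAA, the next 2 are the Malat1 and Meg3 sites of highest log2 fold change, and then follow 2 copies of the U1 small nuclear RNA, a U7 gene and an adaptor match.
Frmpd4 intron, chrX:168003515-168003634, minus strand: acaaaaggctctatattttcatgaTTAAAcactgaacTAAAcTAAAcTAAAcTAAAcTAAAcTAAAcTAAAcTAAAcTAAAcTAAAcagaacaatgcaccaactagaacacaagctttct
Hs3st4 intron, chr7:124141195-124141297, plus strand: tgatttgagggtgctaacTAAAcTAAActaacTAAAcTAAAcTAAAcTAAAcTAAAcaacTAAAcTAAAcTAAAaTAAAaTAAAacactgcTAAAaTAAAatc
Nrxn2 intron, chr19:6514477-6514616, plus strand: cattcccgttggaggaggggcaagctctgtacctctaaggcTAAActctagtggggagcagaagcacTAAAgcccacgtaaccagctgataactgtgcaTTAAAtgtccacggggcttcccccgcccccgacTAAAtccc
Nrxn3 intron, chr12:90199228-90199464, plus strand: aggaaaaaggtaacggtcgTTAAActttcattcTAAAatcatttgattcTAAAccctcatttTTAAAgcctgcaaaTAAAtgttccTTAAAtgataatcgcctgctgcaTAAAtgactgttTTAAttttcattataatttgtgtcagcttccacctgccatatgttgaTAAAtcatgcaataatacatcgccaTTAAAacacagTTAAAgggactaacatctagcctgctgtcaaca
Pex5l intron, chr3:33124547-33124751, minus strand: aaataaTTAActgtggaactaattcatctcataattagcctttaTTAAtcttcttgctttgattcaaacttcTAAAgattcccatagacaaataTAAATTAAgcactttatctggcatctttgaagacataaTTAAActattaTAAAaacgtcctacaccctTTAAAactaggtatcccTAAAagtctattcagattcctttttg
Csmd1 intron, chr8:17430661-17430751, minus strand: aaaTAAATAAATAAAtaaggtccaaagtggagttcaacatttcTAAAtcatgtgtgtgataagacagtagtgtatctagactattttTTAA
Celf2 intron, chr2:6827165-6827320, minus strand: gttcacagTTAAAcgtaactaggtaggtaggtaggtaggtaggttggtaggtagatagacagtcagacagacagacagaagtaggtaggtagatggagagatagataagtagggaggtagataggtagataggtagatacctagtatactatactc
Malat1, chr19:5799945-5800048, minus strand: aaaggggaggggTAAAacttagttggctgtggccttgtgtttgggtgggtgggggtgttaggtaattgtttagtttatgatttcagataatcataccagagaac
Meg3, chr12:109561723-109561848, plus strand: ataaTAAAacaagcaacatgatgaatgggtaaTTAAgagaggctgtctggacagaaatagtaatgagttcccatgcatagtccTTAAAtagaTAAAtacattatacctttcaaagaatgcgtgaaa
U1 copy Gm22126 in Cdyl, chr13:35662169-35662219, plus strand: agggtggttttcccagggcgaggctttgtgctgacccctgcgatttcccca
U1 copy Gm23240, chr1:48462231-48462286, minus strand: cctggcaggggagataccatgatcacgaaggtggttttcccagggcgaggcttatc
U7 gene Rnu7 in Gm45234, chr6:124741226-124741260, minus strand: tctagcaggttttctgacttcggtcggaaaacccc
Slc9a9 intron, adaptor match, chr9:94873117-94873144, plus strand: gacaaagtgcAGATCGGAAGAGCAacca

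The sites best separated from input by p were on non-coding RNAs. Of 14 sites with a −log10 p of at least 10, 13 were on small structural RNAs or lncRNAs, and the other was in the 3′ untranslated region (UTR) of Lars2, the mitochondrial leucyl-tRNA synthetase (log2 fold change 2.07, −log10 p 15.2), a 30-base run of which occurs at 4 places. By contrast, 80 of 99 intronic sites had a −log10 p below 2 (80.8%, 71.7 to 88.0%), as against 2 of 18 lncRNA sites and 1 of 15 small structural RNA sites. No whole-brain site was below 2. Over the 99 intronic sites the −log10 p followed the log2 fold change closely (Spearman's rho 0.903), as the narrow band in the plot of sites by class shows, while rho was 0.306 over the 33 lncRNA and small structural RNA sites and 0.221 over 1743 whole-brain intronic sites. The points of each set share libraries, and both measures come from the same reads. The values were identical within 3 pairs of sites. An intronic Fam155a site and a Dlg4 3′ UTR site both had 2.09 and 0.741, an intronic Syt1 and an intronic Mapk10 site both had 2.11 and 0.740, and the 2 sites of Abi3 both had 2.23 and 0.857.

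U1 small nuclear RNA, the spliceosome component that pairs with the 5′ splice site of introns, accounted for 7 of the 15 small structural RNA sites. Only 2 of these were assigned to a U1 copy by the gene rule, and the other 5 carried the name of the gene around them. The site inside Rock1 lay on the copy Gm26244, which differs from the U1 gene Rnu1a1 at 1 of 164 bases. It joined 5 peaks over U1 bases 1 to 63, with a log2 fold change of 2.59 and a −log10 p of 400, the upper limit of the list. The site inside Ss18, on the copy Gm24924, covered the same U1 bases (2.96 and 32.8). The site on the copy Gm23240 covered bases 8 to 63, all 56 of them identical to Rnu1a1 (2.53 and 32.9). These 3 sites thus ended at the same U1 base. Of the 30-base runs in each site 92.1 to 100% occur elsewhere, at up to 26 places in the genome. Reads that hold only such runs cannot be given to 1 copy.

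**Figure D2:**
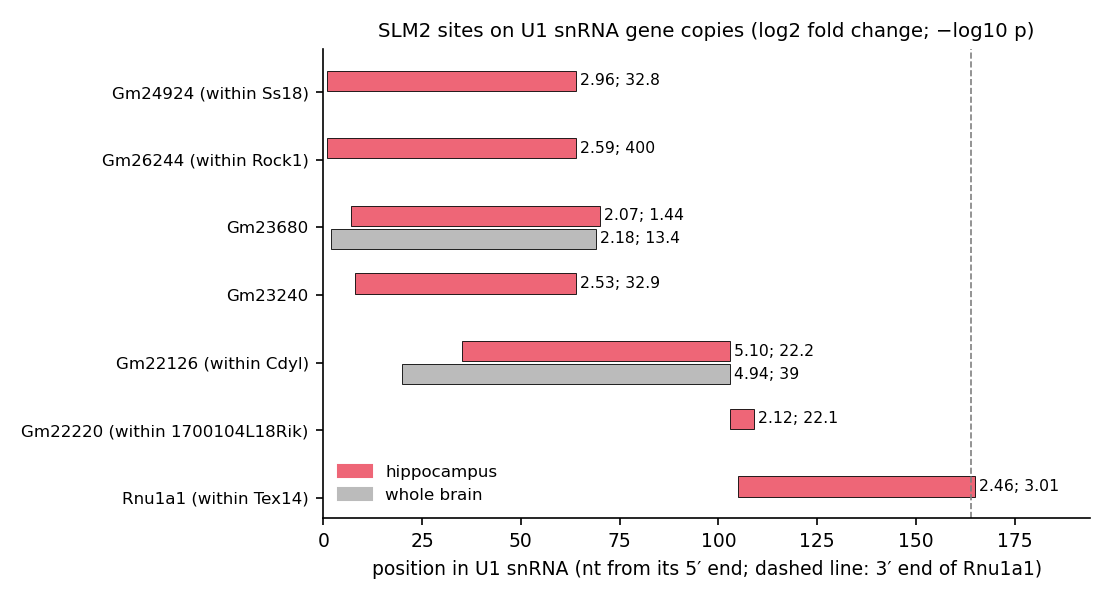
Bars show the U1 bases (x axis, nt from the 5′ end of Rnu1a1, whose last base is 164) that each site on a U1 copy covers, red for hippocampus and grey for whole brain, with the log2 fold change and −log10 p beside each bar. Of 7 hippocampal sites 4 start within the first 8 bases and end between bases 63 and 69, and the sites in Cdyl and Gm23680 have a whole-brain counterpart.

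The highest log2 fold change of all hippocampal sites was also on a U1 copy. The intronic copy Gm22126 inside Cdyl is 82.3% identical to Rnu1a1 as a whole, but its site is identical at 50 of 51 aligned bases. No 30-base run of the site occurs elsewhere. A 20-base run of it occurs at 36 places, so short reads could not always be placed. The site corresponded to U1 bases 35 to 102 across a stretch that the copy lacks, with a log2 fold change of 5.10 and a −log10 p of 22.2. The whole-brain site at the same copy had 4.94 and 39.0. The remaining copies were weaker by one or the other measure. Gm23680 had 2.07 and 1.44 over bases 7 to 69 (whole brain 2.18 and 13.4). The site on Rnu1a1, inside Tex14, covered bases 105 to 164 (2.46 and 3.01), the 3′ end of U1. In these sites 23.5% (Gm23680) and 78.6% (Rnu1a1) of the 30-base runs occur elsewhere, at up to 23 and 25 places. Reads that hold only such runs cannot be given to 1 copy, while other reads of these sites can. The copy Gm22220 in 1700104L18Rik had a site of only 7 nt (2.12 and 22.1).

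The other 8 small structural RNA sites lay on a U7 small nuclear RNA, which processes histone mRNA, on 5S ribosomal RNA, on 5 C/D box small nucleolar RNAs, which guide RNA methylation, and on a microRNA precursor. Rnu7 inside Gm45234 had a log2 fold change of 2.98 and a −log10 p of 10.3, and the whole-brain peak there had 2.08 and 163. Its site spans U7 bases 27 to 61. The 5S site in Lrch3 had 3.00 and 3.13. The small nucleolar RNA sites ranged from a log2 fold change of 2.06 (SNORD88, in 2410002F23Rik) to 2.79 (SNORD97, in Eif4g2), with Snord16a in the ribosomal protein gene Rpl4 at 2.28, Snord99 in Snhg12 at 2.28 and SNORD56 in Nop56 at 2.52. The miRNA gene Gm24270 in Peak1 had 2.61. None of the 15 small structural RNA sites had a higher UWAA density than its flanks and 10 had a lower one, with a mean of 0.408 UWAA per 100 positions within 50 nt of the centre against 1.16 in windows centred 500 nt to each side. In whole brain 4 of 1853 sites (0.216%) were of this class.

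Among lncRNAs, Malat1 and Meg3 had 7 sites each, as many as any gene. Malat1 is an abundant RNA of nuclear speckles, the bodies in which splicing factors collect, and Meg3 is an imprinted nuclear RNA of neurons. The Malat1 sites joined 18 peaks and ran from 0.101 to 6.51 kb of the 6.98 kb gene, with log2 fold changes of 4.08, 2.98, 2.44, 2.64, 4.71, 2.56 and 2.87 in 5′ to 3′ order and −log10 p between 4.88 and 37.6. The first site alone joined 9 peaks. The Meg3 sites joined 14 peaks and lay within 4.16 kb in the 3′ part of the 30.7 kb gene, with log2 fold changes of 2.42, 2.18, 2.93, 2.21, 4.33, 3.08 and 2.09. The highest value of each gene was in a narrow site, of 104 nt in Malat1 and 126 nt in Meg3, which are the sequences printed above.

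**Figure D3:**
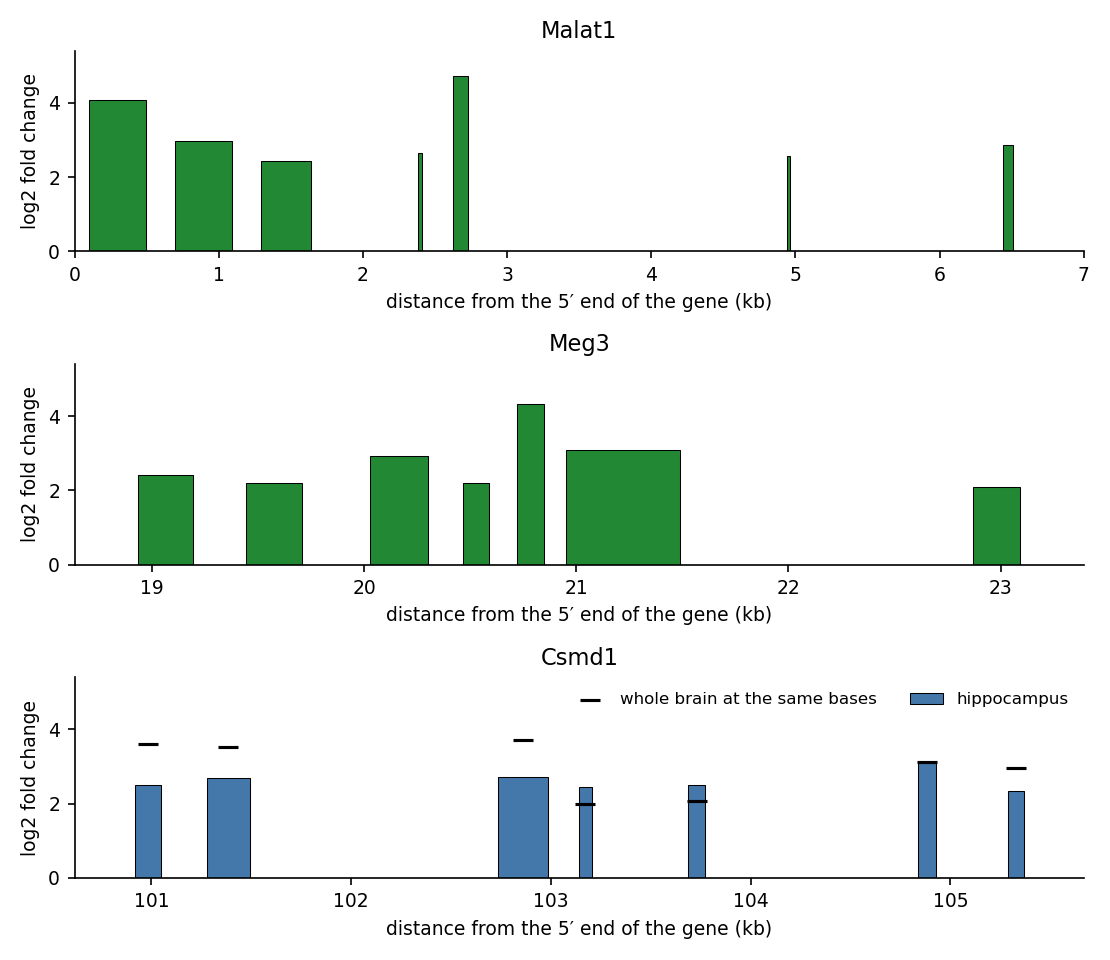
Sites along Malat1, Meg3 and Csmd1, with distance from the 5′ end of the gene in kb on the x axis and the log2 fold change over input on the y axis; bars span each hippocampal site and black dashes give the whole-brain value at the same bases. Malat1 and Meg3 peak at 4.71 and 4.33 and have no whole-brain site, while all 7 sites of Csmd1 have one.

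No lncRNA site shared a base with a whole-brain peak (0 of 18). Malat1 and Meg3 had no whole-brain site at all. Neat1, the scaffold RNA of paraspeckles, had 1 hippocampal site (2.36) and 7 whole-brain sites elsewhere in the gene, and Gm26871 had 1 (3.81) and 12. The Malat1 sites held 26 UWAA, 19 of them in the first site, and those of Meg3 held 20. Within 50 nt of the site centres the mean UWAA density was below that of the flanks, 0.583 against 1.82 per 100 positions in Malat1, 1.17 against 1.75 in Meg3 and 0.907 against 1.45 over the 18 lncRNA sites. Gaps between sites were as short as 201 nt in Malat1 and 101 nt in Meg3, so flank windows can lie in neighbouring sites. The centre window also covers only part of sites of up to 396 and 542 nt. These densities therefore cannot show whether the sites are poorer in UWAA than unbound sequence. The class also includes 2 sites in Gm42418 with log2 fold changes of 2.20 and 2.15 and −log10 p of 115 and 49.6. RefSeq annotates Rn18s-rs5, an 18S ribosomal RNA related sequence, on the same strand (chr17:39846354-39848202) over both of them, and reads of the lncRNA and of ribosomal RNA cannot be told apart there. Of 15 listed nuclear lncRNAs, 4 (Malat1, Meg3, Neat1 and, with that limit, Gm42418) had a site, beside 0.0374% (5) of all 13374 lncRNA genes. The list was chosen with earlier results of these data known, so this count is no independent evidence.

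Intronic sites lay deep inside long introns of long genes. The median distance from the centre to the nearest exon was 33304 nt, 67 of 99 were over 10 kb away, and the median intron length was 142 kb. The 64 protein-coding genes with an intronic or exonic site had a median length of 454 kb, against 17.3 kb for other protein-coding genes and 250 kb for those with a whole-brain site. Of the 99 intronic sites 93 were in genes over 100 kb, so the counts of gene list members below are given beside the share of all genes of that length with a site.

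Genes of glutamatergic synapses held many of the sites. In bulk tissue fewer cells of a type and less RNA per cell cannot be told apart, so the counts describe the RNA of the whole hippocampus. Sites of any −log10 p were counted, though 80 of the 99 intronic sites were below 2. The list counts were not repeated above that limit. Of all 21951 protein-coding genes 0.292% (64) had a site outside small structural RNAs and adaptor matches, and of the 2492 over 100 kb 2.17% (54) did. Among 18 ionotropic glutamate receptor genes 4 had one, all over 100 kb (4 of 13 long members). Gria1 and Gria2, the AMPA receptor subunits GluA1 and GluA2, had log2 fold changes of 3.72 and 2.46. Grik2, the kainate receptor subunit GluK2, had 3 sites of 2.57, 2.53 and 2.61 within 4.83 kb of an intron. Grin2a, the NMDA receptor subunit GluN2A, had 2 sites of 2.23 and 2.21. Of 8 metabotropic receptors Grm5 (2.83) and Grm7 (2.30) had 1 site each.

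Postsynaptic scaffold and signalling genes had a site in 7 of 30 cases (5 of 19 long ones). Dlg2, the scaffold PSD-93, had 5 sites spread over 433 kb with log2 fold changes between 2.06 and 2.79. Frmpd4, a scaffold that binds PSD-95, had 2 sites in 0.312 kb, of 2.37 and 4.45, the latter the highest intronic value. Cnksr2 (2.46), Dlgap1 (2.08) and Lrrc7 (3.07), all proteins of the postsynaptic density, had 1 intronic site each. Camk2a, the kinase of pyramidal cells, had 1 of 2.35, and Dlg4, which encodes PSD-95, had 1 in its 3′ UTR (2.09). Of 21 GABAergic synapse genes 1 had a site, Gphn, the scaffold of inhibitory synapses (2.46, −log10 p 5.74). It was 1 of 10 long members (10%, beside 2.17% of all genes over 100 kb). A 30-base run of the Gphn site occurs at 8 places. Of 28 calcium and sodium channel genes none had a site, 20 of which exceed 100 kb (0%, near the same 2.17%).

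Synaptic adhesion genes, the longest list, gave the largest number, 12 of 69 (17.4%), with 25 sites. All 12 were among the 49 long ones (24.5%, beside 2.17% of all genes over 100 kb). By share the list was below the ionotropic (22.2%) and metabotropic (25%) receptors and the postsynaptic scaffolds (23.3%). Of these genes only Csmd1, Cntnap2 and Cadm2 had a site with a −log10 p of at least 2 (highest 2.31, 3.72 and 2.27). The highest was below 1 in Nlgn1 (0.921), Tenm2 (0.912), Csmd2 (0.836) and Lrrtm4 (0.751). Csmd1, a transmembrane protein with complement control domains, had 7 sites packed into 4.45 kb of a 1643 kb gene, with log2 fold changes of 2.50, 2.69, 2.73, 2.45, 2.51, 3.09 and 2.33 from 5′ to 3′. Their gaps ran from 155 to 1239 nt. Nrg3, the neuregulin ligand of ErbB4, had 5 sites of 2.46 to 2.79 over 559 kb, an arrangement without such packing. Nlgn1, a postsynaptic neurexin ligand, had 2 sites (2.24 and 2.08), and Erbb4 (2.45), Lrrtm4 (2.02), Tenm2 (2.29), Cntnap2 (3.63), Cadm2 (2.36), Csmd2 (2.18) and Lsamp (2.38) had 1 each.

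The 2 neurexin genes had 4 sites, 3 of them in the intron after a 90-nt exon. Nrxn2 had 2 sites (2.63 and 2.01) that started 671 and 1919 nt after a 90-nt exon at chr19:6513716-6513805, in an intron of 3117 nt, with 5 UWAA in each site. Nrxn3 had 1 of its 2 sites, with 16 UWAA and a log2 fold change of 2.73, on the last 9 bases of a 90-nt exon at chr12:90199147-90199236 and the intron after it. The other Nrxn3 site (2.52) lay in an intron of 279472 nt. All 3 sites after the 90-nt exons shared bases with whole-brain peaks, where their log2 fold changes were 3.89, 3.34 and 3.86. Of all 99 intronic sites 7 were within 500 nt of an exon, among them the Nrxn3 site on the 90-nt exon but neither Nrxn2 site. The other 6 were in Abi3, Ndufaf5, Celf2, Brinp1, Pdgfra and Kcnip4, and of these only the Brinp1 site held UWAA. A site can be near the exons on both sides, and 5 of the 7 were near the exon before them and 4 near the exon after them.

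Of 43 genes of the release machinery 3 had a site, all among the 22 long ones (13.6%, beside 2.17% of all genes over 100 kb). Syt1, the calcium sensor of vesicle fusion, had 6 sites of 3.20, 2.23, 2.18, 2.11, 2.44 and 2.15 over 370 kb. Cadps, a vesicle priming factor, had 2.24, and Stxbp5l, the SNARE regulator tomosyn-2, had 2.90. Of 33 potassium and HCN channel genes 3 had sites, 3 of 22 long ones (13.6%), all of them auxiliary or pore subunits of dendritic channels. Kcnip4, which binds Kv4 channels, had 5 sites of 2.04 to 2.89 over 732 kb, and Kcnd2, which encodes Kv4.2, had 2.66. Pex5l, the HCN channel partner TRIP8b, had 2 sites within 0.778 kb, of 2.99 and 3.43. Of 42 RNA-binding protein genes 4 had sites, including 3 of 20 long ones (15%). They were Rbfox3 (NeuN; 2.63 and 4.34), Celf2 (2.04, 2.29 and 3.22), Rbfox1 (2.62) and Tardbp, which encodes TDP-43, in its 3′ UTR (2.51). Khdrbs1, Khdrbs2 and Khdrbs3, the genes of SAM68, SLM1 and SLM2, had none. Epha6, an ephrin receptor with 4 sites of 2.06 to 2.99, was the only axon guidance gene of 32, or of 29 long ones (3.45%, near the 2.17% of all genes over 100 kb).

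Markers of single cell types are mostly short genes and had 3 genes with a site in all. The pyramidal and granule cell list had 1 of 12 (Camk2a), the interneuron list 1 of 15 (Erbb4), the oligodendrocyte list 1 of 16 (Pdgfra, 2.25), and the astrocyte list (12) and the microglia and endothelium list (14) had none. With lists of this size 1 gene is 6.25 to 8.33%, beside the 0.292% of all protein-coding genes. At most 3 genes of any of these lists exceed 100 kb. None of 30 ribosomal protein and housekeeping genes had a site apart from Snord16a within Rpl4. Of 13 genes that the study named as bound, a list chosen on these samples and so no independent evidence, 9 had a hippocampal site. All 13 exceed 100 kb (69.2% with a site, beside 2.17% of all genes over 100 kb).

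Outside introns, protein-coding genes had 6 sites. Apart from Lars2, Dlg4 and Tardbp these were in the 3′ UTR of Abi3, in a coding exon of Gm10800 (2.26) and in a non-coding exon of R3hdm1 (2.34). The Gm10800 window was wholly repeat-masked, and a 30-base run of its site occurs at 69 places.

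UWAA was denser at intronic sites than beside them. Within 50 nt of the centre 3.41 UWAA began per 100 positions, against 1.77 in the flanking windows of the same length, a difference of 1.64, with 58 sites above their own flanks, 31 below and 10 equal. At least 1 UWAA was present in 77.8% of site windows (68.3 to 85.5%) and in 61.6% of flank windows. The A and U content was 62.2% and 61.0%. The whole-brain intronic sites had 3.65 against 1.80. The longer element formed by UUUAAAA or UUAAAAA did not show this, with 0.128 per 100 positions at hippocampal intronic sites and 0.154 in their flanks, against 0.298 and 0.119 in whole brain.

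**Figure D4:**
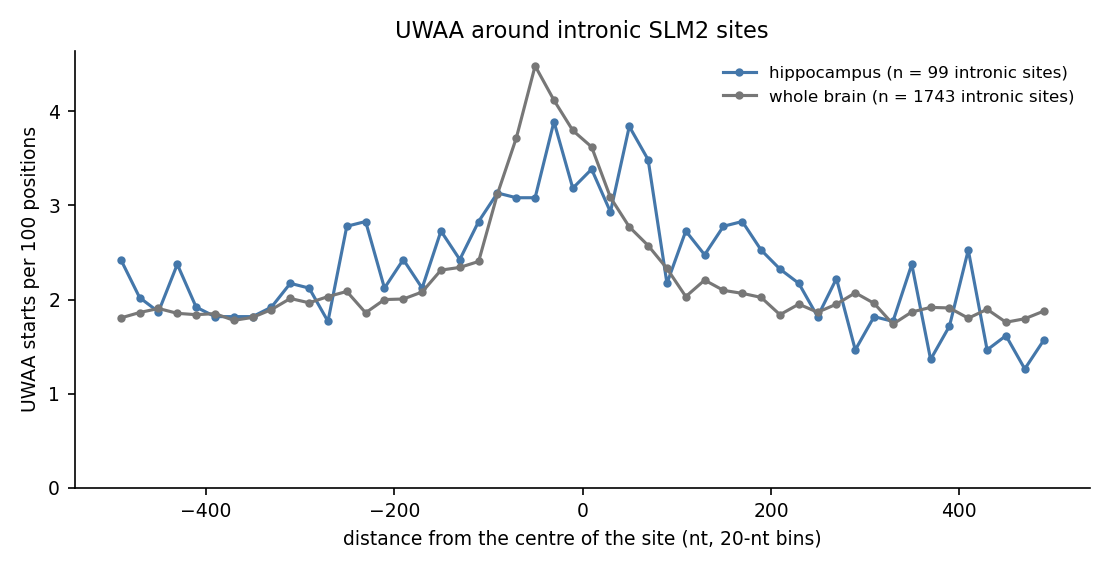
Mean UWAA starts per 100 positions in 20-nt bins by distance from the centre of intronic sites, in blue for the 99 hippocampal and in grey for the 1743 whole-brain sites. The whole-brain line has a single maximum of 4.48 about 50 nt before the centre, and the hippocampal line, from fewer sites, has a broader rise with bins of 3.89 before and 3.84 after the centre.

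The motif was unevenly spread over the sites. A group of 14 intronic sites held at least 10 UWAA each, with 23 in a 260-nt site of Dlg2, 17 in Cntnap2 and in Lrrc7, 16 in Rbfox3 and in Nrxn3, and 13 and 11 in the pair in Pex5l. At the other end, 20 sites held none, among them 2 of the Kcnip4 sites, 2 of the Celf2 sites and those of Gria1, Erbb4, Tenm2, Dlgap1 and Cadm2. The 40 intronic sites that shared a base with a whole-brain peak had 4.80 UWAA per 100 positions against 1.98 in flanks, with 30 above and 10 below. The 59 that did not had 2.47 against 1.63, with 28 above and 21 below. Repeat content moved with the motif: 73 of 99 intronic windows were over 20% repeat-masked (73.7%, beside 52.3% in whole brain), and the 26 others had only 2.04 against 1.51, a difference of 0.530 with 10 above and 11 below. The part of repeats in the difference between tissues was not tested.

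Some intronic sites were tandem repeats, as their sequences show, among them the Frmpd4 site with the highest intronic log2 fold change. Frmpd4 and Hs3st4, a heparan sulfate sulfotransferase, had 11 and 9 units of taaac, each of which makes a UAAA, and thereby the highest motif densities, 12.2 and 14.3 per 100 positions with 0 in their flanks. Both were whole-brain sites too. The highest Celf2 site (3.22) held gtag 14 times, partly in tandem and partly apart, and had 2 UWAA in 156 nt.

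Repeated sequence limits how far reads can be placed. Of all hippocampal sites 58 of 145 (40%, 32.0 to 48.5%) held a 30-base run found elsewhere in the genome, as did 45 of 99 intronic sites (45.5%, 35.4 to 55.8%), compared with 13.0% of whole-brain intronic sites. The flanks differed less, 26.9% of hippocampal and 28.7% of whole-brain sites having such a run in a flank. In 14 intronic sites a run occurred over 1000 times, among them the site of Gria1 (1921 places), which had the highest −log10 p of the intronic sites (9.78), 2 sites of Dlg2 and 1 each of Cntnap2, Lrrc7, Kcnip4, Syt1 and Dlgap1. A run of the highest Frmpd4 site occurred at 353 places. The clusters of Grik2, Nrxn2 and Pex5l had no such run, and in the Csmd1 cluster 1 of the 7 sites had one, at 3 places.

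Of the 145 sites 50 (34.5%, 26.8 to 42.8%) shared a base with a whole-brain peak, 40 of them intronic (40 of 99, 40.4%, 30.7 to 50.7%). Of the 64 protein-coding genes 50 also had a whole-brain site (78.1%, 66.0 to 87.5%), while 14 did not, among them Gria1, Camk2a, Csmd2, Dlg4, Pdgfra, Abi3 and Lars2. Some genes with packed sites shared every one. All 7 sites of Csmd1, all 3 of Grik2 and both of Frmpd4, Pex5l, Nrxn2 and Rbfox3 were shared. The packed sites of Meg3 (7 in 4.16 kb) and Gm42418 (2 in 0.61 kb) and a pair in Epha6 101 nt apart shared none, and the sites spread over long introns were shared in 3 of 6 cases in Syt1, 2 of 5 in Dlg2 and in Nrg3, and 1 of 5 in Kcnip4.

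**Figure D5:**
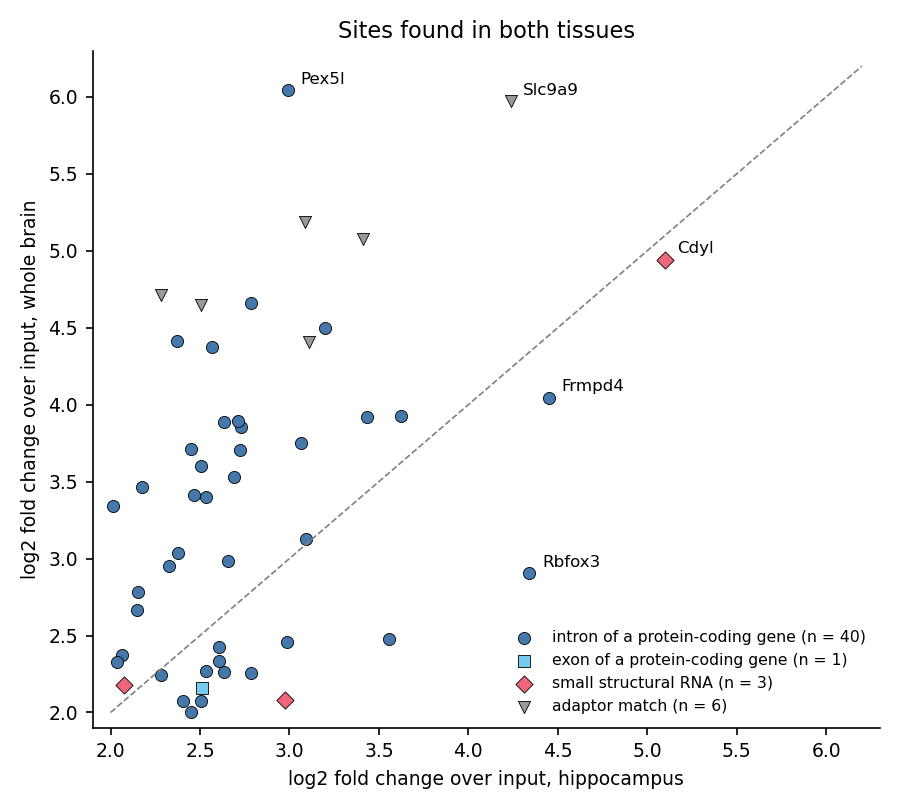
The 50 sites that share a base with a whole-brain peak, with the log2 fold change over input in hippocampus on the x axis and in whole brain on the y axis, by class; the dashed line marks equal values. Of these, 16 lie below the line, among them Rbfox3 at 4.34 and 2.90, Frmpd4 at 4.45 and 4.05 and the U1 copy in Cdyl at 5.10 and 4.94.

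At the shared sites the median log2 fold change was 2.62 in hippocampus and 3.41 in whole brain, and the median −log10 p was 1.53 and 13.8. The hippocampal value was the higher in 16 of 50. It was higher in Rbfox3 (4.34 against 2.90) and Frmpd4 (4.45 against 4.05), while the Pex5l sites went the other way (2.99 against 6.04, and 3.43 against 3.92). By the study's read summary the hippocampal libraries, inputs above all, were sequenced less deeply than those of whole brain, so tissue and depth cannot be told apart in any of these side-by-side values.

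The 7 adaptor matches were 26 to 29 nt long, of which 12 to 14 nt were identical to the adaptor, and they had some of the higher values of the list. Slc9a9 had a log2 fold change of 4.24 (whole brain 5.97), Angpt1 had 3.41 (5.08), Kcns2 3.11 (4.41), Dock1 3.09 (5.19), Gm15218 2.50 (4.65) and Pard3b 2.28 (4.71). Adk (2.92) had no whole-brain peak. In all 6 that were shared the whole-brain value was the higher. These genes are therefore counted apart from the genes with other sites above.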

How the data were processed

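Per the labels, the methods and the submitters' processing notes, adaptors were cut off with cutadapt 3.4, STAR 2.7.9 placed the reads on mm10, UMI-tools 1.1.1 collapsed duplicates, and CLIPper called the peaks, of which the authors kept those reproducible between replicates by the irreproducible discovery rate (IDR). The authors deposited for each peak the log2 fold change over input, the −log10 p, which reaches at most 400, and the −log10 IDR as a reproducibility score, with log2 fold change and −log10 IDR of at least 2. The columns have no names, and their meaning was taken from the header of the authors' supplementary sheet. No per-sample column was left unused, and read depth is not in the lists.

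Peaks were joined into sites and matched to GENCODE vM21 (GRCm38), with protein-coding genes before others and then the longest gene, each site having 1 gene. A site takes the highest value of its peaks. UWAA was counted within 50 nt of the site centre and around points 500 nt to each side, as starts per 100 positions. Exact 30-base runs were sought on both strands of the placed nuclear chromosomes of the RefSeq genome. Copies in the mitochondrial genome or in unplaced sequences were not counted. U1 copies were aligned locally to Rnu1a1 (biopython 1.88). Python 3.11.15, pandas 2.3.3, scipy 1.17.1 and numba 0.67.0 were used, and procedures were tested on simulated data. Named genes are those with at least 2 sites, those of the 10 highest sites by each measure, list members with a site, genes with exonic sites, the up to 5 strongest shared sites, genes named by the study and Khdrbs1 to Khdrbs3. Members and lists were chosen with earlier results of these data known, and the small structural RNA and adaptor classes, Gm42418's ribosomal annotation and the tandem units were noted after the sites were seen. Some genes and sequences are not reported here.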

Additional observations from a re-analysis of the deposited data

How the results depend on the processing

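Each tissue has 1 merged list, so no result has a spread over replicates and no replicate could be left out. No paired analysis was possible because the deposited lists merge the replicates. Requiring a −log10 p of at least 2 left 54 sites in 40 genes, with 57.4% of sites in introns (78.6% with all peaks) and 33.3% in lncRNA genes (14.5%). A log2 fold change of at least 3 left 21 sites in 19 genes, of which 23.8% were in lncRNA genes and 61.9% shared a base with whole brain (34.5%). A −log10 IDR of at least 3 left 75 sites in 53 genes, with 66.7% in introns and 24% in lncRNA genes. Without joining of peaks, introns held 70.8% and lncRNA genes 22.5%, which follows from the many peaks joined in Malat1 and Meg3. With windows at most 20% masked, the UWAA difference was 0.530 instead of 1.64 per 100 positions, and with only sites of −log10 p of at least 2, an alternative chosen after seeing the data, it was 2.31. Runs of 20 bases occurred elsewhere for 86.2% of sites and runs of 50 bases for 13.8%, against 40% for 30 bases. The other alternatives (joining distances of 50 to 500 nt, other gene and centre rules, other overlaps and window lengths, and leaving out small RNA and adaptor sites) stayed within the counting interval or within 1.5 times, and no difference changed sign.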
